A study of Mus musculus with 12 samples.

Results

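The microglia genes described here are C1qa, C1qb, C1qc, Gpr34, Cx3cr1, Csf1r, P2ry12, Tmem119, Aif1 and Trem2, a list of 10 genes whose transcripts in the brain come chiefly from microglia. Every probe that the platform annotation assigned to these genes was taken, which gave 13 of the 45281 probes of the array. All 10 genes had a probe, and Gpr34, Csf1r and Aif1 had 2 probes each. A probe counted as measured where its detection p-value was under 0.01 on at least 3 of the 12 arrays. All 13 probes passed, and each was detected on 12 of 12 arrays, so no named member probe was lost to the filter. The annotation names only probes among the 20791 for which the authors deposited processed values. Other probes of these genes, if present on the array, could not be identified. Most named genes passed the filter, 10912 of 11364, so passing does not set these genes apart. Over the whole array, 19704 probes were measured, and 10912 named genes were represented among them.

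The study measured total RNA of the hypothalamus of adult FVB/NJ-Jax mice at postnatal day 180. Mice labelled small litter were compared with mice labelled control in each sex, with 1 Illumina bead array per mouse and 3 mice a group, so that the 4 groups were control females, small-litter females, control males and small-litter males. All mice shared strain, age and tissue, no transgene or drug is given in the labels, and the labels number the mice of a group as biological replicates but give no litter sizes and do not say which mice shared a litter. Rearing pups in a small litter is commonly used in rodents to give each pup more milk before weaning. A bulk extract holds RNA of all hypothalamic cells, so a lower level of a microglial transcript cannot be told apart as fewer microglia or less of that RNA per microglial cell.

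Microglia are the resident macrophages of the brain. They depend for survival on the receptor Csf1r and its ligands Csf1 and Il34, read signals from neurons through Cx3cr1 and Cx3cl1, sense nucleotides through P2ry12, and clear debris and synaptic material with the help of complement C1q. In the hypothalamus they have been studied for their responses to diet and to nutrition in early life.

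Promoter sequences are shown for 4 of the genes, since C1qb and C1qc did not pass the comparison of the sexes that their neighbour C1qa passed, and since P2ry12 and Trem2 varied widely on a single array. C1qb, C1qc and C1qa stand next to each other on chromosome 4 in RefSeq's annotation of GRCm38.p6, with no other annotated gene between them. RefSeq promoters, matched by symbol, were used for 6 of the 10 genes (C1qb, C1qc, Cx3cr1, P2ry12, Aif1 and Trem2). The promoter of Csf1r was left out, so the motif counts do not cover it. Each sequence holds the 250 bases before a transcript start in RefSeq, read 5′ to 3′ in the direction of the gene, at chr4:136886201-136886450 (minus strand) for C1qb, chr4:136892915-136893164 (minus) for C1qc, chr3:59262986-59263235 (minus) for P2ry12 and chr17:48346151-48346400 (plus) for Trem2. The start used for C1qc lies inside its annotated gene, so that the last 22 bases of that window overlap the gene. Capitals mark GAGGAA or its reverse complement TTCCTC, a short form of the site bound by PU.1, the transcription factor of macrophages and microglia encoded by Spi1.
C1qb: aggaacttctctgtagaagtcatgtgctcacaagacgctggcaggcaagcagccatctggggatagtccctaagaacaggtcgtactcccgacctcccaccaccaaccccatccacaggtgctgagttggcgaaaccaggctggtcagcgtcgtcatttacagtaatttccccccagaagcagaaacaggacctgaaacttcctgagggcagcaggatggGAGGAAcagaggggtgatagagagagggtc
C1qc: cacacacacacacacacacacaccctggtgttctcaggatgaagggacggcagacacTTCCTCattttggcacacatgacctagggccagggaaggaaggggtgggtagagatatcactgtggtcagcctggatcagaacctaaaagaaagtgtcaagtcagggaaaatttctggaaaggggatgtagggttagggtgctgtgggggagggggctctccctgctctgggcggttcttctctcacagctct
P2ry12: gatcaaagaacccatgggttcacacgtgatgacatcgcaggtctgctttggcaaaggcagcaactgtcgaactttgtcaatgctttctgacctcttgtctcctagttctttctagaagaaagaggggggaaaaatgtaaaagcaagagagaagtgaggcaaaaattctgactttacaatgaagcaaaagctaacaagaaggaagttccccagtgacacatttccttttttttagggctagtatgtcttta
Trem2: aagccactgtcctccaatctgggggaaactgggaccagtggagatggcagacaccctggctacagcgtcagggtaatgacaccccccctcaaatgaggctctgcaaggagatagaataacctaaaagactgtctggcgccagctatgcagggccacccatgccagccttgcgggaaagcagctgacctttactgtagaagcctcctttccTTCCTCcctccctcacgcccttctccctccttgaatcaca

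The motif GAGGAA, searched on both strands, was present in the promoters of C1qb, C1qc, Aif1 and Trem2 and in neither of those of Cx3cr1 and P2ry12. The last 31 bases of the Aif1 window overlap its annotated gene, and its match lies within them. GAGGAA was present in 7639 of 32851 RefSeq promoters of the same length, or 23.3%. TGACTCA, a site of AP-1 factors, also searched on both strands, was found in 0 of the 6 promoters and in 4.46% of all promoters. These matches describe the letters in the windows and nothing about binding.

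The raw arrays had a median signal of 103 to 127 and detected 39.7% to 41.9% of probes. The medians of the female arrays (112 to 127) and the male arrays (103 to 108) did not overlap, and sex and raw brightness cannot be told apart in this design. After normalization, correlations between arrays ran from 0.981 to 0.993. Male small litter 2 and 3 stood apart on the first principal component (27.1% of the variance), with scores of 25.43 and 32.88. The other male arrays scored 3.12 to 7.18 and the female arrays -15.74 to -6.70, so this component also separated the sexes. Female control 3 and male control 2 carried high levels of meningeal genes, with mean deviations of 1.16 and 1.18 on the log2 scale over 14 genes against at most 0.33 on the other arrays. Male control 3 stood apart in the microglia genes themselves, and values that rest on it are described beside the results they touch. The number of arrays, 3 a group, limits the precision of every comparison.

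**Figure D1:**
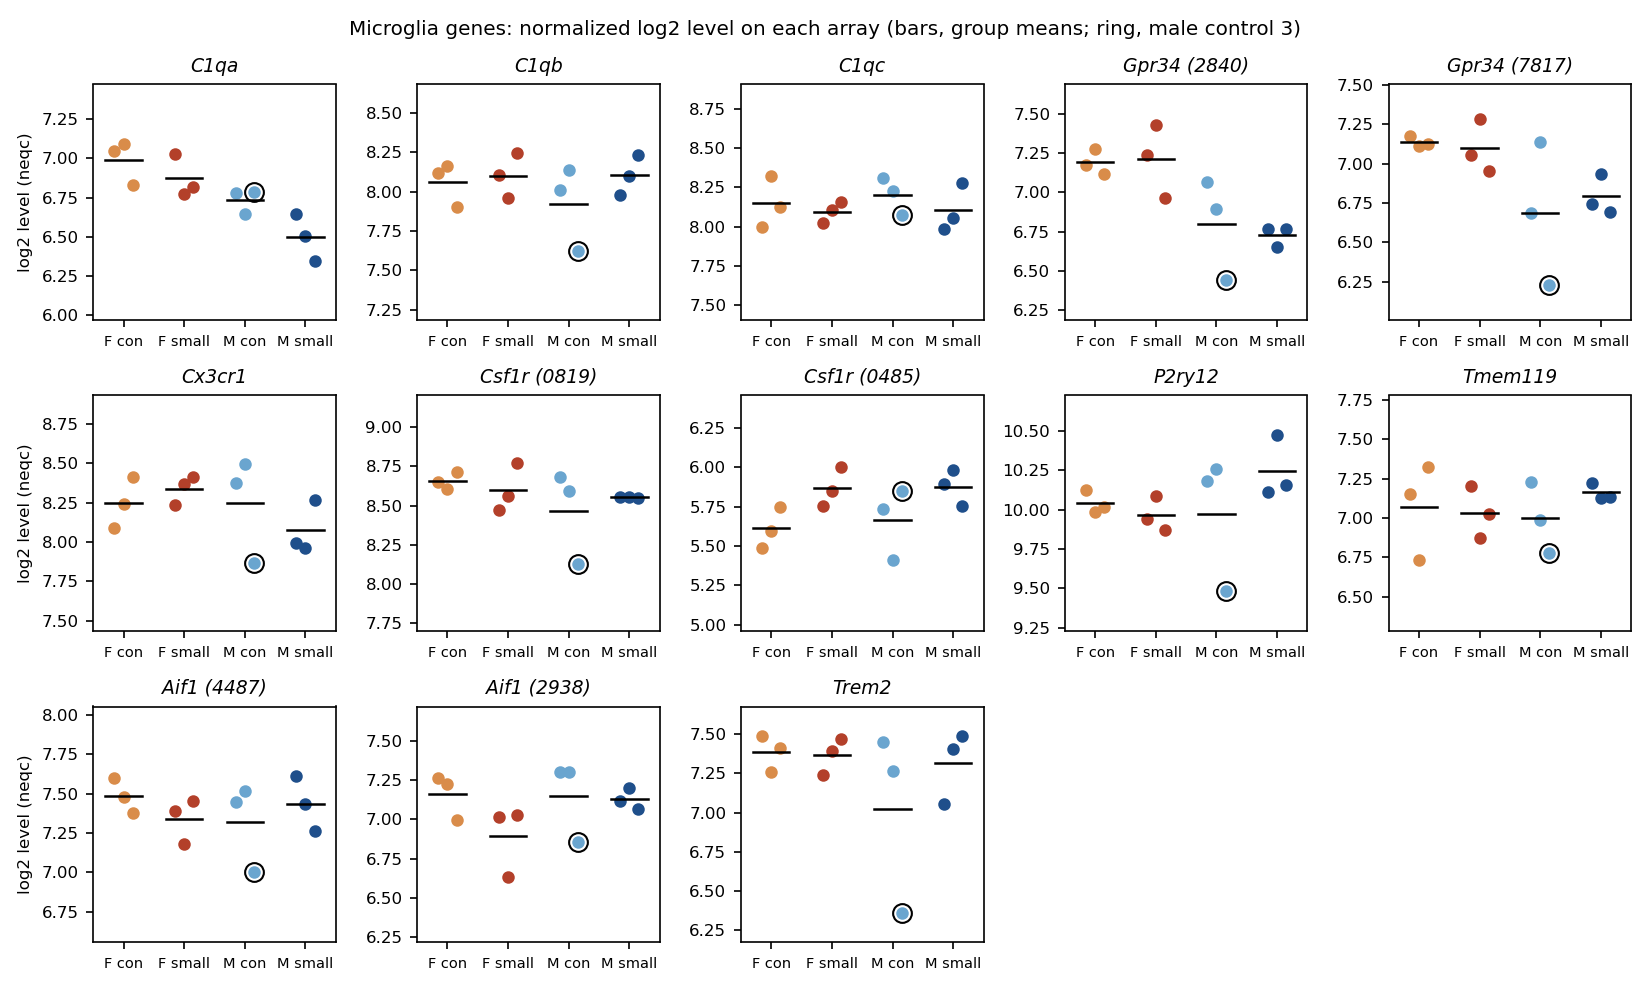
Normalized log2 level (vertical axes, each spanning the same log2 width) of each of the 13 probes on each of the 12 arrays, by group (F, female; M, male; con, control; small, small litter). Points are arrays, bars are group means of 3, the ring marks male control 3, and the 4 digits in brackets end the probe's identifier; C1qa and the Gpr34 probes sit lower in males, and the ringed array is lowest in 8 of the 13 panels.

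The 3 chains of C1q, the recognition molecule that starts the classical complement pathway, are encoded by C1qa, C1qb and C1qc. On the normalized log2 scale, C1qa measured 7.05, 7.09 and 6.83 in female controls, 7.03, 6.77 and 6.82 in female small litters, 6.78, 6.64 and 6.79 in male controls and 6.64, 6.505 and 6.34 in male small litters. The highest male array thus stood below 5 of the 6 female arrays, and the highest male small-litter array (6.6423) lay just under the lowest male control array (6.6431). C1qb measured 8.12, 8.16 and 7.90 in female controls, 8.11, 7.96 and 8.24 in female small litters, 8.01, 8.14 and 7.62 in male controls and 7.98, 8.10 and 8.24 in male small litters. All 4 groups overlapped for C1qb, and its low value came from male control 3. C1qc measured 7.998, 8.32 and 8.12 in female controls, 8.02, 8.11 and 8.16 in female small litters, 8.31, 8.23 and 8.07 in male controls and 7.98, 8.05 and 8.28 in male small litters. C1qc had the narrowest spread of the 13 probes over the 12 arrays (SD 0.12), and its groups overlapped.

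Csf1r encodes the receptor tyrosine kinase through which Csf1 and Il34 maintain microglia. Its brighter probe, ILMN_2710819, measured 8.65, 8.60 and 8.71 in female controls, 8.47, 8.56 and 8.77 in female small litters, 8.68, 8.59 and 8.13 in male controls and 8.55, 8.55 and 8.55 in male small litters. Apart from male control 3 at 8.13, all arrays lay between 8.47 and 8.77. Its other probe, ILMN_1230485, measured 5.49, 5.60 and 5.75 in female controls, 5.76, 5.85 and 6.005 in female small litters, 5.73, 5.41 and 5.85 in male controls and 5.90, 5.98 and 5.75 in male small litters. That probe was highest on female small litter 3 and was not low on male control 3, and over the 12 arrays the probe pair correlated at -0.11. The pair for Csf1r therefore did not track the same differences, whereas the pairs for Gpr34 and Aif1 correlated at 0.80 and 0.75. These correlations share the same arrays and normalization.

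Cx3cr1, the receptor for the neuronal chemokine Cx3cl1, measured 8.09, 8.24 and 8.41 in female controls, 8.24, 8.37 and 8.41 in female small litters, 8.37, 8.49 and 7.87 in male controls and 7.995, 7.96 and 8.27 in male small litters. P2ry12, the purinergic receptor for ADP that guides microglial processes, measured 10.12, 9.99 and 10.02 in female controls, 9.94, 10.08 and 9.87 in female small litters, 10.18, 10.25 and 9.48 in male controls and 10.11, 10.47 and 10.16 in male small litters. Both genes were lowest on male control 3, while for P2ry12 4 of the 6 male arrays lay above every female array (9.87 to 10.12).

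Gpr34, a G protein-coupled receptor for lysophosphatidylserine encoded on the X chromosome, had values on probe ILMN_2742840 of 7.18, 7.28 and 7.12 in female controls, 7.24, 7.43 and 6.97 in female small litters, 7.07, 6.89 and 6.44 in male controls and 6.77, 6.65 and 6.77 in male small litters. On this probe 5 of 6 male arrays lay below every female array, and the exception was male control 1. Probe ILMN_1237817 measured 7.17, 7.11 and 7.13 in female controls, 7.06, 7.28 and 6.95 in female small litters, 6.69, 7.14 and 6.23 in male controls and 6.75, 6.94 and 6.69 in male small litters. Here too 5 of 6 male arrays lay below every female array, and the exception was male control 2.

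Trem2, a receptor for lipids and lipoproteins that signals through the adaptor Tyrobp, measured 7.49, 7.26 and 7.41 in female controls, 7.24, 7.39 and 7.47 in female small litters, 7.45, 7.26 and 6.36 in male controls and 7.05, 7.40 and 7.49 in male small litters. Male control 3 lay 0.91 below the mean of the 12 arrays for Trem2, the widest deviation of any of the 13 probes on any array. The spread of Trem2 within groups (SD 0.32 on the log2 scale) was wider than that of 95.5% of all measured probes, against a median of 0.17 over all probes.

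Tmem119, a transmembrane protein used as a marker of resident microglia, ranged from 6.73 on female control 2 to 7.32 on female control 3, so that a single group spanned its whole range. Aif1 encodes the calcium-binding protein Iba1, by which microglia are commonly stained. Its probe ILMN_2804487 ranged from 6.999 on male control 3 to 7.61 on male small litter 1, and its probe ILMN_1212938 from 6.63 on female small litter 2 to 7.30 on male control 2. All 4 groups overlapped for Tmem119 and for the first of these Aif1 probes.

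In females, 0 of the 13 probes passed the test between small litter and control (limma, Benjamini-Hochberg adjustment over all 19704 measured probes, threshold 0.05), where the background was 0% of all probes. At an unadjusted p under 0.05 the counts were 0 of 13 and 689 of all probes (3.5%). Log2 changes of the microglia probes ran from -0.27 (Aif1 ILMN_1212938) to 0.26 (Csf1r ILMN_1230485), with a median of -0.04 against 0.00 over all measured probes, and 4 were above 0 and 9 below. Taken over all 13 probes, the separate 95% intervals reached no lower than -0.58 and no higher than 0.54, or factors of 0.668 to 1.45. Each interval holds for its own probe, so these limits do not cover all probes jointly. The groups did not overlap for 1 of 13 probes, Csf1r ILMN_1230485, against 9.41% of all probes, and its change of 0.26 ± 0.13 (SE, 3 mice a group) had an adjusted p of 0.9997 by limma, while the brighter Csf1r probe changed by -0.05.

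In males, 0 of the 13 probes passed either, again with a background of 0% of all probes, while 0 of 13 and 2462 of all probes (12.5%) had an unadjusted p under 0.05. Log2 changes ran from -0.24 (C1qa) to 0.29 (Trem2), with a median of 0.11 against 0.00 over all probes, and 8 were above 0 and 5 below. This direction rested on male control 3: without it, 4 were above 0 and 9 below, and the median was -0.09 against 0.00 over all probes. Trem2 then changed by -0.04 instead of 0.29, P2ry12 by 0.03 instead of 0.27, and C1qb by 0.03 instead of 0.18. C1qa was the single probe of the 13 whose male groups did not overlap (background 14.4%), with a log2 change of -0.24 ± 0.12 (SE, 3 mice a group), a 95% interval from -0.49 to 0.01 and an adjusted p of 0.423 by limma.

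Averaged over both sexes, 0 of 13 probes passed (background 0%), and the widest change was that of Csf1r ILMN_1230485 at 0.24 ± 0.09 (SE, 6 mice a litter group), with a 95% interval of 0.04 to 0.43 and an adjusted p of 0.839 by limma. At an unadjusted p under 0.05 this was 1 of 13 microglia probes, against 1146 of all probes (5.82%). The median over the 13 probes was 0.015, and -0.08 without male control 3. The other Csf1r probe changed by 0.01, with an interval of -0.19 to 0.22. C1qa changed by -0.18 ± 0.08, with an interval of -0.36 to 0.00 and an adjusted p of 0.839 by limma. The test of whether the litter change differed between the sexes called 0 of 13 probes (background 0%; 0 of 13 and 9.23% of all probes at an unadjusted p under 0.05). P2ry12 had the widest such difference, -0.35 ± 0.25 (SE; female change minus male change), with an interval of -0.89 to 0.18. It rested on male control 3: without it P2ry12 was at -0.11 and the widest difference was that of Cx3cr1 at 0.45, with an adjusted p of 0.520 by limma. The median over the 13 probes then went from -0.14 to 0.026.

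**Figure D2:**
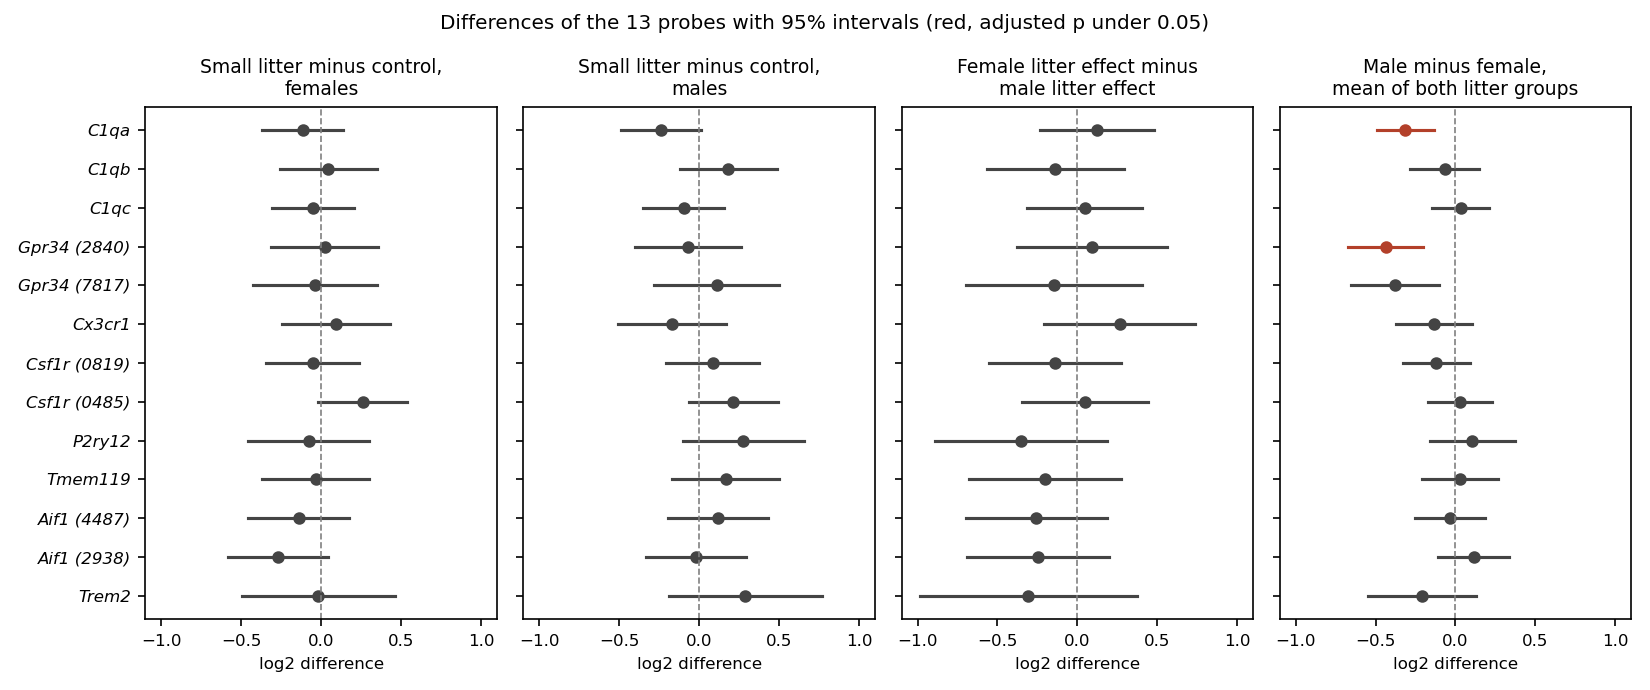
Log2 difference (horizontal axes, points) with its 95% interval (lines) of the 13 probes in 4 comparisons over 12 arrays, from 1 limma fit of all measured probes; red marks an adjusted p under 0.05. No probe passed between small litter and control, and C1qa and Gpr34 (2840) passed between the sexes, both lower in males.

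Between the sexes, averaged over both litter groups, C1qa and Gpr34 were lower in males, and no other microglia gene passed the test. The count was 2 of 13 probes (15.4%), both lower, against 4.89% of all probes called in either direction (964 of 19704), 2.56% called higher and 2.33% called lower. At an unadjusted p under 0.05 the counts were 3 of 13 microglia probes, C1qa and both Gpr34 probes, and 24.2% of all probes. At that threshold the microglia share was thus no higher than the background. Gpr34 ILMN_2742840 fell by 0.44 ± 0.11 (SE, 6 mice a sex) on the log2 scale, from a mean of 7.20 in females to 6.76 in males, a fold of 0.739 with an interval of 0.628 to 0.870 (adjusted p = 0.0419 by limma). The other Gpr34 probe differed by -0.38 ± 0.13, with an interval of -0.65 to -0.10 (adjusted p = 0.0952). C1qa fell by 0.32 ± 0.08 (SE, 6 mice a sex), from a mean of 6.93 in females to 6.62 in males, a fold of 0.804 with an interval of 0.710 to 0.909 (adjusted p = 0.0474 by limma).

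The neighbours of C1qa did not pass: C1qb differed by -0.07 ± 0.10, with an interval of -0.28 to 0.15, and C1qc by 0.03 ± 0.08, with an interval of -0.15 to 0.21. A test of C1qa against C1qb or C1qc was not made, since probes were not compared with each other. The other probes ran from -0.21 (Trem2) to 0.11 (Aif1 ILMN_1212938), and the median over the 13 probes was -0.07 against 0.00 over all measured probes. Without male control 3, the difference was -0.04 for Trem2, 0.23 for P2ry12 instead of 0.11, and 0.19 for Aif1 ILMN_1212938, the median was -0.018, and 0 of 13 probes passed, with C1qa at -0.33 (adjusted p = 0.0773 by limma) and Gpr34 ILMN_2742840 at -0.35 (adjusted p = 0.0752). For 0 of 13 probes did all arrays of one sex lie apart from all arrays of the other, against 3.44% of all probes.

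Both calls stood close to the threshold. Leaving out 1 array at a time, the adjusted p of C1qa ranged from 0.0268 to 0.0979 and stayed under 0.05 only without male small litter 1. That of Gpr34 ILMN_2742840 ranged from 0.0300 to 0.0917 and stayed under 0.05 only without female small litter 3, male control 1 or male small litter 1. Without the pair of arrays high in meningeal genes, or without the pair that stood apart on the first principal component, 0 of 13 probes passed. Without the detection filter C1qa passed and Gpr34 did not (adjusted p = 0.0539 by limma). The directions held in every fit that left out 1 array, with log2 differences of -0.36 to -0.28 for C1qa and -0.50 to -0.35 for Gpr34. The number of all probes called moved too, from 964 to between 245 and 1900. Within control litters the difference was -0.25 for C1qa (adjusted p = 0.391 by limma) and -0.39 for Gpr34 (adjusted p = 0.322), where 0.0761% of all probes were called. Within small litters it was -0.38 (adjusted p = 0.0944 by limma) and -0.48 (adjusted p = 0.103), where 1.74% of all probes were called. Without background correction both kept their calls at smaller size, -0.17 for C1qa and -0.25 for Gpr34.

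The sexes also differed in the raw brightness of their arrays and in a red blood cell gene. Of 5 measured of 9 listed, 4 were lower in males and 1 was called, against 4.89% of all probes. The gene called was Hbb-b2, which fell by 0.78 ± 0.14 (SE, 6 mice a sex; adjusted p = 0.0147 by limma). The mean deviation of that list ran from -0.34 to 0.53 on female arrays and from -0.58 to 0.16 on male arrays. Border and perivascular macrophage genes, the closest relatives of microglia in the brain, had 7 of 12 members measured and 0 called. Of these, 6 were lower in males and 1 higher, with a median of -0.13 against -0.0045 over all named genes. Their mean deviation ran from -0.23 to 0.32 in females and from -0.25 to 0.19 in males. The part of these cells and of brightness in the C1qa and Gpr34 differences was not tested.

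**Figure D3:**
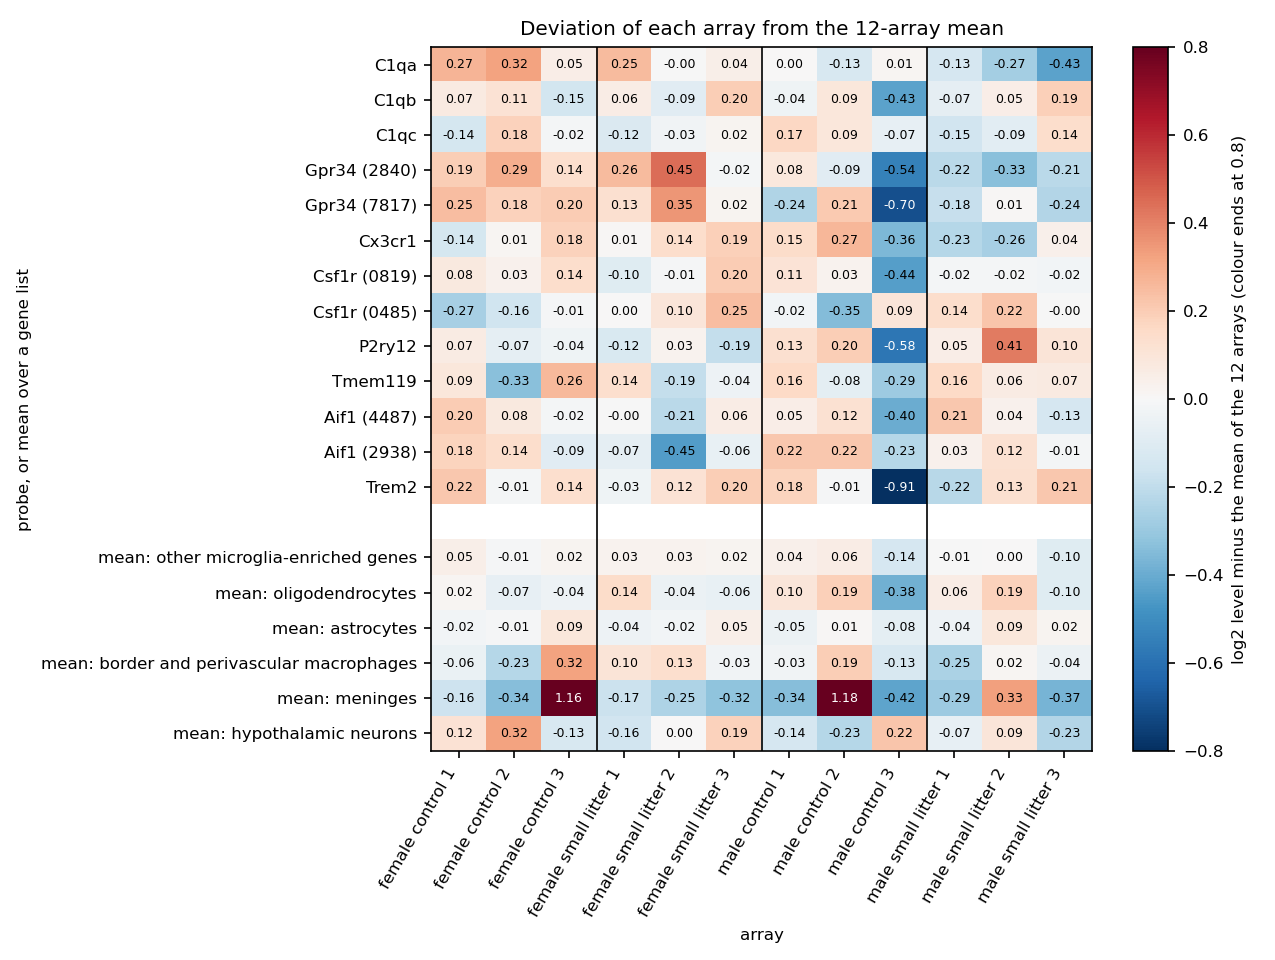
Deviation of each array from the mean of the 12 arrays, in log2 units (colour and printed value), for the 13 probes (upper block) and for the mean over the measured genes of 6 cell type lists (lower block); columns are arrays, with lines between the groups. Male control 3 lies below both other male controls in 11 of the 13 upper rows and is low in the oligodendrocyte row (-0.38), and female control 3 and male control 2 are high in the meninges row.

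Male control 3 had the lowest value of all 12 arrays on 8 of the 13 probes and the lowest of its own group on 11 of 13. Over all measured probes it was the lowest array for 9.35% and the lowest of its group for 33.2%. The mean deviation of the 10 microglia genes was -0.40 on that array and -0.06 to 0.10 on the other arrays. C1qa, at 6.79, was not low there, nor was Csf1r ILMN_1230485, at 5.85. The other microglia-enriched genes, 45 measured of 64 listed, averaged -0.14 on the same array and -0.10 to 0.06 elsewhere. Oligodendrocyte genes, 7 measured of 8, averaged -0.38 there and -0.10 to 0.19 elsewhere. Hypothalamic neuropeptide genes, 12 measured of 14, averaged 0.22 there, within their range of -0.23 to 0.32 elsewhere. The part of oligodendrocyte content, or of how the tissue was dissected, in the low microglia values of this array was not tested.

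The microglia genes varied together across arrays mainly through that array. With group means removed, the 45 pairs among the 10 genes had a median correlation of 0.46 over 12 arrays, and 35 pairs were above 0. Without male control 3 the median was -0.06 and 22 pairs were above 0. The highest pair, Csf1r with Trem2, went from 0.88 to 0.47, and P2ry12 with Trem2 from 0.85 to 0.31. C1qc with Cx3cr1 changed least among the pairs above 0.6, from 0.68 to 0.61. The correlations of C1qa lay between -0.64 (with Cx3cr1) and 0.32 (with Aif1), and with C1qb and C1qc they were -0.12 and -0.38. Without male control 3 these were -0.83, 0.68, 0.0035 and -0.35, so that C1qa with Aif1 was then the highest of the 45 pairs, and C1qa with Gpr34 went from -0.011 to 0.19. All these correlations share arrays, depth of signal and normalization, and they are descriptions.

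The 8 genes outside the list whose deviations were most like the mean of the microglia genes, with group means removed over 12 arrays, were Slitrk5 (r = 0.96), Ugt8a (0.95), Rnaset2b (0.94), Phldb1 (0.94), Fgfr2 (0.94), Klk6 (0.94), Pdlim2 (0.93) and Dleu2 (0.93). Without male control 3 the same genes gave 0.78, 0.67, -0.33, 0.61, -0.06, -0.05, 0.01 and 0.54. Of the 8 genes, 0 were on the list of other microglia-enriched genes. The best of that list was Ly86 at 0.86, which ranked 38 of 10902 genes and gave 0.66 without male control 3. The median over the 45 genes of that list was 0.36 with the array and -0.12 without it, against -0.02 and -0.04 over all named genes.

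Among the other microglia-enriched genes, with 1 probe a gene, 0 of 45 passed in any litter comparison, and the median change was 0.01 in females and -0.02 in males. In males Hpgds, the haematopoietic prostaglandin D synthase, had the smallest p. Its level was 5.06 to 5.39 in male controls and 5.70 to 5.93 in male small litters, a change of 0.61 ± 0.12 (SE, 3 mice a group; adjusted p = 0.268 by limma). Its adjusted p with 1 array left out ranged from 0.0334 to 0.699 and was under 0.05 only without male small litter 1. In that fit 3.14% of all probes were called in males. Pik3ap1, an adaptor of phosphoinositide 3-kinase, changed by 0.33 and Itgb5, the integrin beta 5 chain, by -0.34 (adjusted p 0.297 and 0.312 by limma). Pik3ap1 also had the smallest p of the list in the mean over both sexes, with a change of 0.32 ± 0.08 (adjusted p = 0.839 by limma) that was 0.096 without background correction. In females its probe was detected on 0 of 3 control arrays (mean 4.87) and on 2 of 3 small-litter arrays (mean 5.18). The small-litter mean was 1.11-fold the lowest signal detected on the control arrays. Since not every small-litter array was detected, this ratio sets no lower bound on the change. The fitted change of Pik3ap1 in females was 0.31 (adjusted p = 0.9997 by limma). In females the low-signal probes of Fcgr1, the high-affinity IgG receptor, and Ltc4s, leukotriene C4 synthase, changed by -0.55 and -0.31 (adjusted p 0.9997 for both by limma), and in the small-litter arrays they were detected on 1 and 2 of 3.

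Between the sexes 3 of these 45 genes passed, against 448 of 10912 named genes with 1 probe a gene. Arrays of the sexes did not overlap for 3.44% of all probes. Lgmn, the lysosomal protease legumain, was 10.89 to 10.99 on female arrays and 11.14 to 11.31 on male arrays without overlap, and rose by 0.28 ± 0.06 in males (SE, 6 mice a sex; adjusted p = 0.0279 by limma). Itgb5 fell by 0.38 ± 0.09 in males (adjusted p = 0.0327). Pik3ap1 rose by 0.32 ± 0.07 (adjusted p = 0.0352), but its probe was detected on 2 of 6 female arrays, and its difference shrank to 0.09 without background correction (adjusted p = 0.161 by limma). The median over the 45 genes was -0.07, with 17 higher and 28 lower. Tyrobp, the adaptor of Trem2, differed by -0.22 (adjusted p = 0.136 by limma), and the transcription factor gene Irf8 by -0.08. Neither Tyrobp (0.22 in females, 0.10 in males) nor Irf8 (0.03 and -0.18) passed in a litter comparison.

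Of the ligands and partners of the microglial receptors, 10 of 12 were measured, and 1 passed between the sexes, against 4.89% of all probes. Cx3cl1, the ligand of Cx3cr1, ranged from 11.12 to 11.28 on female arrays and from 10.53 to 11.12 on male arrays, and 5 of 6 male arrays lay below every female array. It fell by 0.42 ± 0.10 in males (SE, 6 mice a sex; adjusted p = 0.0396 by limma), whereas its receptor Cx3cr1 differed by -0.13 (adjusted p = 0.491). Il34, a ligand of Csf1r, ranged from 6.92 to 7.23 on female arrays and from 7.26 to 7.46 on male arrays without overlap, a difference of 0.25 ± 0.07 that did not pass (adjusted p = 0.0685 by limma). Csf1, the other ligand, differed by -0.13, and Apoe, a lipoprotein that Trem2 binds, by 0.00. Between litters 0 of 10 passed in either sex. In males Cd200, a neuronal protein that restrains microglia, ran from 8.61 to 9.83 in small litters against 8.49 to 8.62 in controls, a change of 0.84 ± 0.24 (SE, 3 mice a group; adjusted p = 0.281 by limma). Its high values came from male small litter 2 and 3 (9.72 and 9.83), the arrays that stood apart on the first principal component. Without male small litter 1, which left only male small litter 2 and 3 in that group, the change was 1.23 (adjusted p = 0.00485 by limma). In that fit 618 of 19704 probes (3.14%) were called in males, against 0 with all arrays.

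In females Csf1 changed by 0.35, Il34 by 0.10, Cx3cl1 by 0.07 and Apoe by 0.09, and in males by -0.12, 0.05, -0.07 and 0.08. None of these values passed the test.

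Other complement genes had 7 of 19 members measured and 0 called in any comparison. In males all 7 had a change below 0, with a median of -0.31 against -0.01 over all named genes, led by Cd93 (-0.49), C4b (-0.44) and C4a (-0.31), with adjusted p from 0.306 to 0.449 by limma. Cd93 was once taken for a C1q receptor, and C4a and C4b encode near-identical forms of complement C4, so their probes may share transcripts. The mean deviation of the list was highest among male arrays on male control 2 (0.18), the array high in meningeal genes, and lowest on male small litter 3 (-0.43), which stood apart on the first principal component. Without male control 2 the median was -0.34 with 6 of 7 below 0, and without male small litter 3 it was -0.18 with 7 of 7 below 0. Meningeal genes, 14 measured of 18 and 0 called, had medians of -0.27 in males (12 lower) and -0.51 in females (14 lower), and Serping1, the C1 inhibitor gene, is on both lists. Without Serping1 the male complement median was -0.36. The part of meningeal tissue in the complement values was not tested. In females the complement median was -0.09, with 3 higher and 4 lower.

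Genes raised in activated microglia had 16 of 22 measured and 0 called between litters, with medians of 0.04 in females and -0.05 in males. Between the sexes 2 of the 16 were called, against 4.89% of all probes, and the median was -0.08 with 4 higher and 12 lower. Cd9, a tetraspanin, rose by 0.29 ± 0.07 in males without overlap of the sexes (adjusted p = 0.0304 by limma). Ctsd, the lysosomal protease cathepsin D, fell by 0.57 ± 0.14 on a low-signal probe that was detected on 5 of 6 male arrays (adjusted p = 0.0439), and by 0.20 without background correction. Inflammation genes had 8 of 23 measured and 0 called in any comparison, with medians of -0.01 in females, -0.13 in males and -0.05 between the sexes. Genes of monocytes, granulocytes and lymphocytes had 3 of 20 measured and 0 called. Each of the 6 calls between the sexes named in these lists was lost on leaving out at least 1 array, with highest adjusted p from 0.0660 to 0.0919.

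**Figure D4:**
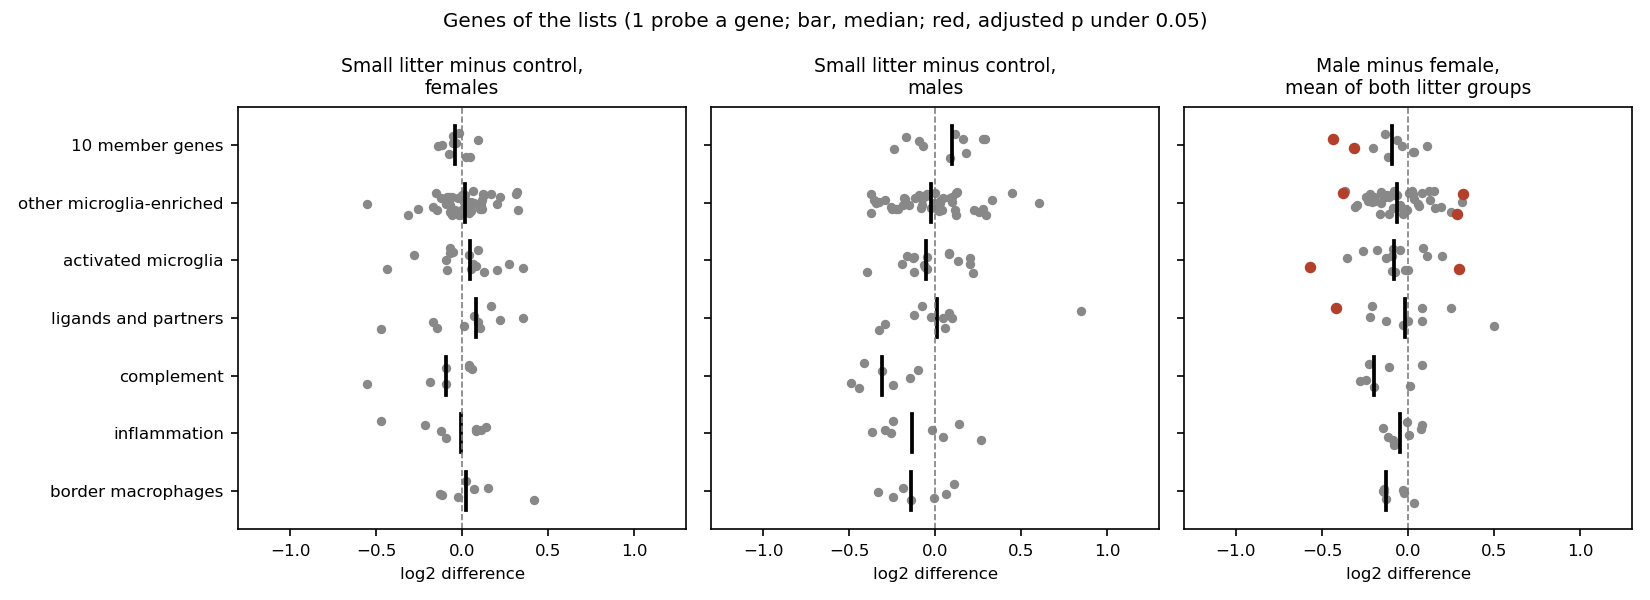
Log2 difference (horizontal axes) of each measured gene of 7 lists in 3 comparisons, with 1 probe a gene; bars are list medians and red points have an adjusted p under 0.05 over all measured probes. The 10 microglia genes lie around 0 in both litter comparisons, and all red points are in the comparison of the sexes.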

How the data were processed

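Total RNA of 12 hypothalami, 3 mice in each of 4 groups, was labelled with biotin for Illumina bead arrays, per the labels. The authors deposited a non-normalized bead intensity and a detection p-value per array for all 45281 probes. The processed log2 values, also deposited by the authors, cover 20791 probes. Their scale was found from the values: their correlation with log2 intensity was 0.99978 or higher on all arrays, and their median was 7.84. The submitters' processing notes name lumi; its version is not given in the sources used here. These values served as an alternative.

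Probes were named through the supplied platform annotation, which paired 18003 of those 20791 probes with 1 symbol and 6 with several, and did not list 2782. Of the named probes 17983 were matched by gene identifier to RefSeq genes. Spi1, Itgam and Cd68 had no probe named in this annotation and were not analysed here. Where a list had fewer genes measured than listed, the others lacked a named probe or did not pass the detection filter. These cases were not separated, so a gene that was not measured cannot be read as not detected in the tissue. Different probes of a gene were kept apart, and for genes of other lists the probe of highest mean was used.

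Normalization used neqc of limma 3.58.1 in R 4.3.3: normexp background correction with negative control values inferred from the detection p-values, quantile normalization, and log2 after adding an offset of 16. This offset and the background correction set the size of changes on dim probes. All measured probes were fitted with a mean per group over the 12 arrays (lmFit, eBayes; residual degrees of freedom 8, prior 5.21). The 5 contrasts were small litter minus control in females, in males and as the mean of both, the female change minus the male change, and males minus females as the mean over litters. Tests were two-sided, with Benjamini-Hochberg adjustment over all 19704 measured probes and a threshold of 0.05. The fit was tested on simulated data with known changes.

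The members, the gene lists and the tests were chosen with earlier results of these data known. All member probes were tested in every comparison, but the text gives values for only some of them in each. Of the other lists, up to 3 genes with the smallest p in a comparison were named, though not for every list or comparison. Genes of the other lists that passed were named in the results, except Kiss1 of the hypothalamic neuropeptide genes. Kiss1 had a log2 difference of -1.11 ± 0.12 (SE) between the sexes (adjusted p = 0.000903 by limma). Csf1, Il34, Cx3cl1, Tyrobp, Apoe and Irf8 were named in the litter comparison of each sex and between the sexes. Likeness was the correlation with the mean deviation of the 10 genes, with group means removed. The labels do not say whether replicate numbers pair the mice. Of 18 same-numbered pairs of arrays 0 had deviations that correlated over 0.1 (range -0.11 to 0.09). With 3 arrays a group this cannot exclude a pairing or a shared batch. Depth is expressed by raw brightness, and the number of arrays limits the precision. Alternatives changed the values, background correction, offset, scaling, filter, features, arrays in the fit, variance model, array weights and replicate block, and left out arrays singly and in pairs.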

Additional observations from a re-analysis of the deposited data

Results flagged for a closer look

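In each sex and each litter group, the highest or lowest of the 6 arrays was examined for each of the 13 probes, which gave 52 groups of 6. In 8 of them the outer array was separated from the next by more of the whole range than Dixon's 95% critical value for 6 arrays. Chance flags about 5% of such groups, or about 1 in 20, and the 52 groups share arrays.

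Male control 3 was the outer array in 6 of the 8. Its Csf1r ILMN_2710819 level of 8.13 was lowest among males (next 8.55) and among controls (next 8.59). Its P2ry12 level of 9.48 was lowest among males (next 10.11) and among controls (next 9.99). Its Aif1 ILMN_2804487 level of 6.999 was lowest among controls (next 7.38). Its Trem2 level of 6.36 was lowest among controls (next 7.26).

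Among small litters, female small litter 3 was highest for Csf1r ILMN_2710819 at 8.77 (next 8.56), and female small litter 2 was lowest for Aif1 ILMN_1212938 at 6.63 (next 7.01). No microglia probe passed the test of a litter change that differed between the sexes.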

How the results depend on the processing

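The litter comparisons called 0 microglia probes under every alternative run: median scaling, the authors' log2 values, an offset of 50, no background correction, detection on all 12 arrays, no detection filter, 1 probe a gene, arrays of 1 sex, a trended and robust variance, array weights, the replicate block, and leaving out arrays. The count between the sexes was 2 as reported, and 1 without the detection filter (Gpr34 lost, adjusted p = 0.0539 by limma) and 1 with the replicate block (C1qa lost, adjusted p = 0.0558 by limma). The block moved the count over all probes from 964 to 495, and the labels do not say whether replicate numbers pair the mice. The count was 0 without female control 3 and male control 2, 0 without male small litter 2 and 3, 0 in control litters only, 0 in small litters only, and 0 to 2 with 1 array left out. It was 3 with a trended and robust variance, where the second Gpr34 probe passed (adjusted p = 0.0493 by limma). Over all probes the calls between the sexes numbered 1603 with the authors' values, 1619 without background correction, 1537 with an offset of 50, 1753 with a trended and robust variance, 2156 with array weights, and 117 and 24 without those pairs of arrays. The sex difference within 1 litter group, the correlations without male control 3, and the complement medians without an array or Serping1, were chosen after seeing the data. The files give no slide or scan, so a slide block was not run.

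Signs turned for small changes, of which none passed a test; the cause was not tested. With array weights, Csf1r ILMN_2710819 was -0.0014 in the mean litter change and Csf1r ILMN_1230485 -0.031 in the difference of litter changes, and with median scaling Apoe was 0.023 between the sexes. Without female control 3 and male control 2, female changes were -0.036 for C1qb, -0.015 for Gpr34 ILMN_2742840 and 0.091 for Tmem119, male changes were 0.083 for Csf1 and 0.051 for Aif1 ILMN_1212938, and mean changes were 0.064 for Cx3cr1 and 0.0079 for Aif1 ILMN_2804487. Without male small litter 2 and 3, male changes were -0.068 for Tyrobp, 0.083 for Csf1, 0.31 for Cx3cl1 and -0.015 for Apoe, the mean change of Aif1 ILMN_2804487 was 0.073, the difference of litter changes for C1qa was -0.023, and sex differences were -0.028 for C1qc and 0.052 for Aif1 ILMN_2804487. In control litters only, sex differences were 0.11 for Csf1, 0.0016 for Apoe, 0.026 for Irf8, -0.070 for P2ry12, -0.072 for Tmem119 and -0.0086 for Aif1 ILMN_1212938. In small litters only they were 0.0015 for C1qb and 0.094 for Aif1 ILMN_2804487.

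With 1 array left out in turn, the median over the 13 probes ranged from -0.086 to 0.18 in males and from -0.20 to 0.026 for the difference of litter changes, and some log2 differences spanned 0. In females these were C1qb -0.036 to 0.12, C1qc -0.13 to 0.035, Csf1r ILMN_2710819 -0.14 to 0.01, Gpr34 ILMN_1237817 -0.13 to 0.032, Gpr34 ILMN_2742840 -0.089 to 0.14, Irf8 -0.13 to 0.13, Tmem119 -0.20 to 0.091 and Trem2 -0.081 to 0.045. In males they were Aif1 ILMN_1212938 -0.17 to 0.051, Aif1 ILMN_2804487 -0.046 to 0.21, Apoe -0.089 to 0.18, Csf1 -0.25 to 0.084, Csf1r ILMN_2710819 -0.086 to 0.19, Cx3cl1 -0.26 to 0.031, Gpr34 ILMN_1237817 -0.12 to 0.33, Gpr34 ILMN_2742840 -0.25 to 0.061, Il34 -0.0017 to 0.079 and Trem2 -0.044 to 0.50. In the mean over sexes they were Aif1 ILMN_2804487 -0.095 to 0.034, Csf1r ILMN_2710819 -0.07 to 0.068, Cx3cr1 -0.13 to 0.023, Gpr34 ILMN_1237817 -0.082 to 0.15, Gpr34 ILMN_2742840 -0.11 to 0.041, P2ry12 -0.025 to 0.17, Tmem119 -0.020 to 0.13 and Trem2 -0.031 to 0.24. In the difference of litter changes they were C1qb -0.25 to 0.013, C1qc -0.030 to 0.13, Csf1r ILMN_1230485 -0.045 to 0.18, Csf1r ILMN_2710819 -0.24 to 0.032, Gpr34 ILMN_1237817 -0.37 to 0.082, Gpr34 ILMN_2742840 -0.041 to 0.27 and Trem2 -0.52 to 0.026. Between the sexes they were Aif1 ILMN_2804487 -0.083 to 0.046, Apoe -0.051 to 0.084, C1qb -0.12 to 0.0081, C1qc -0.011 to 0.076, Csf1r ILMN_1230485 -0.018 to 0.093, Irf8 -0.15 to 0.0046 and Tmem119 -0.056 to 0.092.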
